A study of Mus musculus with 10 samples.

Results

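The RNA levels of mouse embryonic stem cells (mESCs) that lack *Elmsan1* were compared with those of their parental wild-type (WT) line. The comparison used 6 of the 10 RNA-seq libraries of the series, chosen by the line that their labels name: 2 of WT, 2 of the *Elmsan1* knockout (KO) clone E2E8 and 2 of the *Elmsan1* KO clone E2G7. All 3 lines were male C57/BL6 Bruce-4 mESCs and were grown without serum in 2iL medium, which holds LIF at 1000 U/ml, the GSK3 inhibitor CHIR99021 at 3 µM and the MEK inhibitor PD0325901 at 1 µM. The WT cells carried no edit, whereas each KO clone was grown from a single sorted cell after transfection with Cas9 and a guide RNA. The labels do not say that WT was cloned in the same way. The study speaks of 2 biological replicates each for WT and the KO clones. The sources used here do not say that the libraries of a line came from separate cultures. The p-values therefore measure the spread between libraries, which may be technical. Other libraries of the series came from *Dnttip1* KO clones. They entered the scaling and 1 alternative fit of all 10 libraries, and no other result.

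ELMSAN1, also called MIDEAS, is a scaffold of the mitotic deacetylase complex (MiDAC), which also holds DNTTIP1 and the histone deacetylases HDAC1 or HDAC2. Histone deacetylases remove acetyl groups from lysines of histone tails and act in several complexes that differ in their scaffolds. TRERF1 and ZFP541 are relatives of ELMSAN1 that can take its place in MiDAC. mESCs in 2iL are held in the naive state of pluripotency, in which ERK signaling is blocked and WNT signaling is switched on.

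The guide RNA and its target show where the gene was cut. In the genome build NCBIM37 the gene is named *C130039O16Rik* and lies on the minus strand of chromosome 12, at chr12:85490126-85559831. The guide matched 1 site beside a PAM without a mismatch, at chr12:85512612-85512631 on the plus strand, inside coding exon 3 of the 13 exons of transcript C130039O16Rik-201 (chr12:85512410-85512709, 300 bases). The study gives the targeted exon a different number. The predicted cut is between bases 85512628 and 85512629. The guide and the target with 20 bases on either side (chr12:85512592-85512651, plus strand) read 5′ to 3′, with the PAM in capitals:
Elmsan1 guide: gcucucuuggcggcuaaggc
Elmsan1 target: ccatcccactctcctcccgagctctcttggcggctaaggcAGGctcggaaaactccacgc

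The *Elmsan1* transcript was close to its WT level in both clones. Its level, in FPKM after scaling between libraries, was 5.73 and 5.34 in WT, 4.89 and 5.13 in E2E8 and 4.62 and 4.75 in E2G7. The KO libraries all lay below both WT libraries, and the log2 difference from WT was -0.14 ± 0.055 (SE) in E2E8 and -0.23 ± 0.055 in E2G7, adjusted p = 0.083 and 0.023, short of the 1.5-fold line. FPKM give no base changes, so these values do not check the indels, which were not analysed here. All log2 differences in the text are on the scale of log2(FPKM + 0.1), which understates changes of low genes. Their adjusted p are from limma, with Benjamini-Hochberg adjustment over the 17212 genes tested.

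Of the other MiDAC genes, *Trerf1* rose in both clones. *Trerf1* measured 0.462 and 0.558 FPKM in WT, 1.41 and 1.36 in E2E8 and 0.982 and 0.952 in E2G7, so that the levels of both clones were above WT and E2E8 was highest, with log2 differences of 1.29 ± 0.11 (SE) in E2E8 and 0.81 ± 0.11 in E2G7, adjusted p = 0.00057 and 0.0039. *Dnttip1* measured 8.45 and 8.35 FPKM in WT, 6.43 and 6.74 in E2E8 and 7.64 and 7.77 in E2G7 and *Hdac2* 58.0 and 54.6 in WT, 41.7 and 40.5 in E2E8 and 48.5 and 47.0 in E2G7. Both were lowest in E2E8, by less than 1.5-fold. *Hdac1* measured 42.7 and 43.7 FPKM in WT, 46.5 and 42.0 in E2E8 and 49.8 and 49.4 in E2G7, so that E2E8 overlapped with WT and E2G7 lay slightly above. *Zfp541* was at most 0.00863 FPKM in any library. Of 37 other subunits of class I HDAC complexes tested, none passed in both clones and 1, *Chd3*, was lower in E2E8 only, at 10.5 and 9.52 FPKM in WT, 5.44 and 6.04 in E2E8 and 9.15 and 9.34 in E2G7.

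The libraries held from 30182379 to 84291842 fragments on genes, fewest in WT. The lines had the markers of mESCs, as *Pou5f1* (321 and 294 FPKM in WT, 243 and 238 in E2E8 and 289.8 and 289 in E2G7) and *Nanog* (325 and 324 in WT, 244 and 241 in E2E8 and 271 and 262 in E2G7) were high throughout. The 20 fibroblast markers summed to between 2.19 and 3.39 FPKM per library, and 18 of them were under 1 FPKM everywhere. The lines differed in chromosome-wide levels, as the plot of medians by chromosome shows. Genes on chromosome 6 had a median log2 difference from WT of 0.39 in E2E8 and 0.29 in E2G7, and genes on chromosome 8 of 0.35 in both clones, whereas the median of every other autosome and of X was between -0.07 and 0.04. The 8 Y-linked genes summed to 32.4 and 32.1 FPKM in WT, 0.00598 and 0.0111 in E2E8 and 16.5 and 16.5 in E2G7. In bulk RNA, fewer cells of a type and less RNA per cell cannot be told apart. The part of the chromosome-wide differences in the calls was measured by subtracting each chromosome's median in each clone (chromosome centring). The part of the Y-linked genes in other results was not tested.

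**Figure D1:**
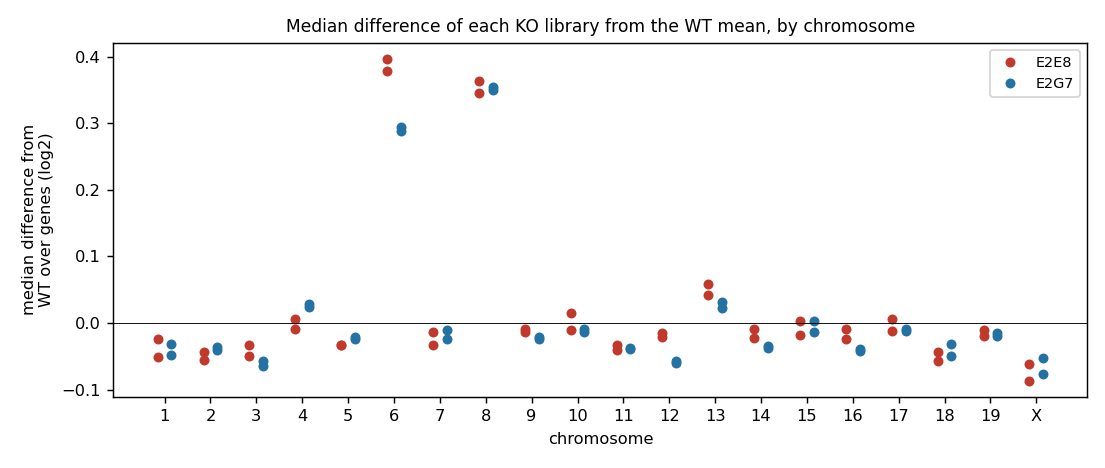
Median log2 difference of each *Elmsan1* KO library from the mean of the WT libraries (y axis) over the genes of each chromosome (x axis), with 1 point per library. Chromosomes 6 and 8 stand between 0.29 and 0.40 in all 4 KO libraries and all other chromosomes lie near 0.

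Genes were called differentially expressed (DEGs) at an unadjusted p under 0.01 and a change of at least 1.5-fold, the rule of the study. With the 4 KO libraries pooled, 634 genes were downregulated and 472 upregulated against WT (3.68% and 2.74% of genes tested). Taken by clone, E2E8 had 1006 downregulated (5.84%) and 1749 upregulated genes (10.2%), and E2G7 had 1101 downregulated (6.40%) and 617 upregulated genes (3.58%). Both clones shared 516 downregulated (3.00%) and 346 upregulated genes (2.01%). Both contrasts used the same WT libraries, so a shared call is not an independent repeat. The count of pooled downregulated genes fell to 300 without WT replicate 1 and to 317 without WT replicate 2. With libraries of a line treated as correlated, the pooled counts were 253 and 233, and with a pseudocount of 1 FPKM the shared counts were 216 and 126.

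A gene was assigned to 1 clone only if it was called in that clone, not in the other, and also in the direct test of the clones. By this rule 217 genes were lower (1.26%) and 762 higher (4.43%) in E2E8 only, and 288 were lower (1.67%) and 99 higher (0.575%) in E2G7 only. Only 20 genes (0.116%) were called in opposite directions. Set against each other, E2E8 had 506 genes lower (2.94%) and 1622 higher (9.42%) than E2G7. The E2E8-only upregulated genes were 487 without E2E8 replicate 2, and the E2G7-only upregulated genes 59 without E2G7 replicate 2.

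**Figure D2:**
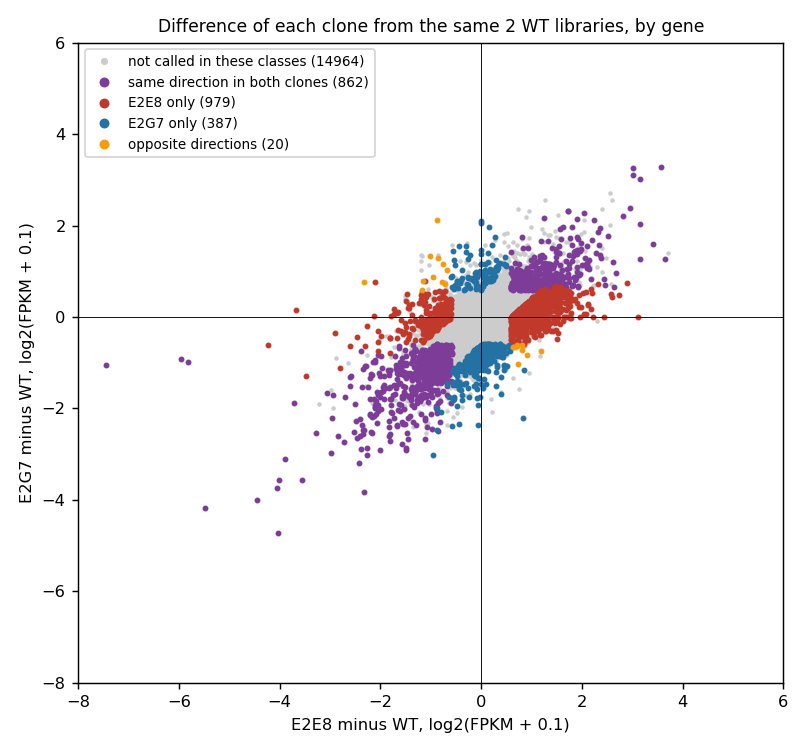
Log2 difference of E2E8 from WT (x axis) and of E2G7 from WT (y axis) for each gene tested, colored by how it was called. The 2 axes share the WT libraries, so part of the diagonal is built in. E2E8-only genes extend mostly to the right (762 higher, 217 lower) and E2G7-only genes mostly downward (288 lower, 99 higher).

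The shared downregulated genes were mostly of low or moderate level. Their median in WT was 1.46 FPKM, against 4.41 FPKM for all genes tested. Of the 516, 427 were protein-coding, 256 were down at least 2-fold in both clones and 37 at least 4-fold. The shared upregulated genes had a WT median of 0.991 FPKM, and of the 346, 278 were protein-coding, 103 were up at least 2-fold in both clones and 9 at least 4-fold. In every shared gene the KO libraries did not overlap with the WT libraries, which the rule nearly requires. Of all 17212 genes tested, 7413 had no overlap, in either direction. Genes named here were chosen by the rule given with the processing, and list members outside it were named for their role after their values were seen. The X-linked genes *Cfp* and *Klhl13* were picked outside both the rule and the lists. Counts of list members called in both clones stand beside 3.00% lower and 2.01% higher over all genes tested. Counts in 1 clone only stand beside 1.26% lower and 4.43% higher for E2E8, and 1.67% lower and 0.575% higher for E2G7. The strongest changes in each direction are in the plot of shared genes by library.

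**Figure D3:**
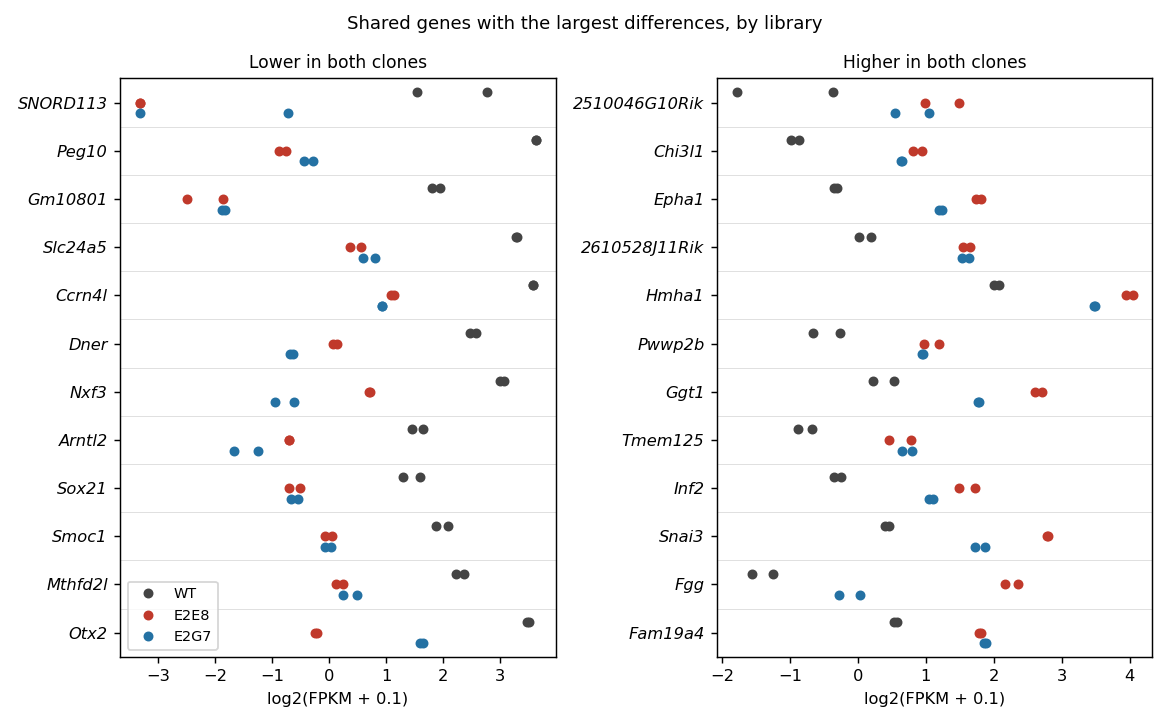
Level of each library, as log2(FPKM + 0.1) (x axis), for the 12 genes with the largest smaller clone difference in each direction among genes that averaged 1 FPKM or more. Points are single libraries of WT, E2E8 and E2G7, and a gene listed at 0 is at the left edge. In all 24 genes the KO libraries lie on 1 side of both WT libraries.

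Genes of axon guidance were tested by role, since the study asked whether MiDAC acts on SLIT and NETRIN signaling. SLITs and netrins are secreted proteins that repel or attract growing axons through ROBO, DCC and UNC5 receptors. Of 5 ligand genes tested, *Slit3* and *Ntn1* fell in both clones and none rose, and the median log2 difference of the list was -0.003 in E2E8 and -0.24 in E2G7, beside 0.03 and -0.02 for all genes tested. *Slit3* (chr11:34934726-35522009) measured 0.643 and 0.491 FPKM in WT, 0.0325 and 0.0316 in E2E8 and 0.0246 and 0.0152 in E2G7. It was low in WT and close to absent in every KO library, with a log2 difference of -2.33 ± 0.20 (SE) in E2E8 and -2.47 ± 0.20 in E2G7, adjusted p = 0.00055 and 0.00074. With either WT library left out, *Slit3* no longer met the minimum of 0.1 FPKM in 2 libraries and could not be tested. *Ntn1* (chr11:68022866-68214325) was a well-expressed gene, at 25.6 and 25.2 FPKM in WT, 12.2 and 12.6 in E2E8 and 12.9 and 13.5 in E2G7. Its KO libraries were close to each other and at about the same distance below WT, with log2 differences of -1.03 ± 0.037 (SE) in E2E8 and -0.94 ± 0.037 in E2G7, adjusted p = 6.5e-05 and 0.00015. *Slit2* measured 6.91 and 7.11 FPKM in WT, 6.90 and 7.09 in E2E8 and 5.94 and 5.87 in E2G7 and was not called.

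Of 4 receptor genes tested, none was called in both clones and none was called lower. *Unc5b*, a netrin receptor, was higher in E2G7 only, at 8.74 and 8.06 FPKM in WT, 8.83 and 9.72 in E2E8 and 14.8 and 14.3 in E2G7, with a log2 difference between E2E8 and E2G7 of -0.65 ± 0.064 (SE, adjusted p = 0.0012). Without E2E8 replicate 1 that difference was -0.58, short of the line. Without E2E8 replicate 1 the difference of the clones was -0.58, under the 1.5-fold line. *Robo1* measured 5.91 and 5.65 FPKM in WT, 6.09 and 6.46 in E2E8 and 5.28 and 5.10 in E2G7 and *Neo1*, a netrin receptor related to DCC, had mean levels of 20.2 FPKM in WT, 22.3 in E2E8 and 19.7 in E2G7, and neither passed. E2E8 lay slightly above WT in both genes. *Dcc* was listed at 0 in all libraries and *Robo3* was at most 0.00872 FPKM.

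Other guidance families moved in both directions. Neuropilins and plexins form the receptors of semaphorins, and the neuropilin gene *Nrp2* fell in both clones. *Nrp2* (chr1:62749859-62865269) measured 5.40 and 5.28 FPKM in WT, 1.39 and 1.22 in E2E8 and 1.75 and 1.61 in E2G7, with all KO libraries well under WT, with log2 differences of -1.95 ± 0.085 (SE) in E2E8 and -1.61 ± 0.085 in E2G7, adjusted p = 9.4e-05 and 0.00028. *Plxna1* rose, at 8.48 and 7.87 FPKM in WT, 16.3 and 17.9 in E2E8 and 13.5 and 13.8 in E2G7, but lies on chromosome 6 and lost its call with chromosome centring. Of 16 semaphorin genes only *Sema3e* fell in both clones. It measured 0.224 and 0.169 FPKM in WT, 0.0329 and 0.0604 in E2E8 and 0.0574 and 0.0641 in E2G7 and its call was lost when any 1 library was left out. No ephrin of 8 was called in both clones, whereas 2 of 8 EPH receptor genes rose. *Epha1* (chr6:42308486-42323267) measured 0.682 and 0.710 FPKM in WT, 3.22 and 3.40 in E2E8 and 2.19 and 2.26 in E2G7 and was highest in E2E8, with a log2 difference of 2.10 in E2E8 and 1.55 in E2G7, kept under chromosome centring although the gene is on chromosome 6. *Ephb2* was at 0.859 and 0.814 FPKM in WT, 1.57 and 1.73 in E2E8 and 1.46 and 1.37 in E2G7.

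Of 36 genes of growth cone signaling, 2 fell and 1 rose in both clones (beside 3.00% and 2.01% of all genes). In E2E8 only, 1 was lower and 2 were higher. *Enah* (chr1:183834576-183950111) encodes MENA, which lengthens actin filaments at the leading edge of growth cones. It measured 77.5 and 73.6 FPKM in WT, 29.3 and 30.2 in E2E8 and 41.5 and 39.3 in E2G7, lowest in E2E8, with log2 differences of -1.34 ± 0.043 (SE) in E2E8 and -0.90 ± 0.043 in E2G7, adjusted p = 5.5e-05 and 0.00022. *Trpc6*, a cation channel gene, measured 1.66 and 1.63 FPKM in WT, 0.216 and 0.312 in E2E8 and 0.133 and 0.145 in E2G7 and was near the lower end of detection in the KO clones. *Pak6*, a kinase gene, rose from a low level, and measured 0.262 and 0.160 FPKM in WT, 0.453 and 0.513 in E2E8 and 0.739 and 0.814 in E2G7, but lost its call when any 1 KO library was left out. Its call was lost without any single KO library.

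Neural adhesion molecules changed in both directions. These are mostly immunoglobulin-type proteins by which neurites hold on to each other. Of 13 tested, *Ncam1*, *Alcam* and *Nfasc* fell and *Cntn2* and *Cntnap2* rose in both clones. *Ncam1* (chr9:49310257-49607027) measured 5.87 and 6.08 FPKM in WT, 1.52 and 1.48 in E2E8 and 1.63 and 1.66 in E2G7. The clones were close to each other and far below WT, with log2 differences of -1.92 ± 0.059 (SE) in E2E8 and -1.80 ± 0.059 in E2G7, adjusted p = 5.5e-05 and 0.00012. *Alcam* measured 1.11 and 1.26 FPKM in WT, 0.192 and 0.166 in E2E8 and 0.201 and 0.179 in E2G7 and again gave nearly equal differences of -2.21 in E2E8 and -2.15 in E2G7. *Cntnap2*, at 0.515 and 0.498 FPKM in WT, 1.62 and 1.77 in E2E8 and 1.09 and 1.03 in E2G7, rose and was highest in E2E8. *Nfasc* and *Cntn2* were at most 0.328 FPKM in any library, and their calls were lost without WT replicate 2 or without any 1 KO library.

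Neuronal and synaptic genes that were detectable in mESCs moved in both directions, with more shared calls downward. Of 16 markers of neural progenitors and neurons, 3 fell in both clones (beside 3.00% of all genes) and none rose in both, with median log2 differences of -0.32 in E2E8 and -0.38 in E2G7. *Nefl*, the light neurofilament subunit, measured 7.76 and 7.97 FPKM in WT, 4.33 and 4.86 in E2E8 and 3.06 and 3.39 in E2G7, lowest in E2G7, with log2 differences of -0.76 ± 0.077 (SE) in E2E8 and -1.26 ± 0.077 in E2G7, adjusted p = 0.00091 and 0.00038. *Nefm*, the medium subunit, measured 0.830 and 0.800 FPKM in WT, 0.236 and 0.332 in E2E8 and 0.193 and 0.222 in E2G7. *Stmn2*, a microtubule regulator of growth cones, was the most abundant of the 3, at 94.5 and 86.0 FPKM in WT, 52.9 and 51.3 in E2E8 and 59.2 and 58.0 in E2G7. Its log2 difference in E2G7 of -0.62 was close to the 1.5-fold line, and was -0.55 without WT replicate 1 and -0.56 with chromosome centring. The summed level of all 25 markers was 275 and 253 FPKM in WT, 174 and 172 in E2E8 and 247 and 247 in E2G7, so that the sum was lowest in E2E8. *Vim*, vimentin, was lower in E2E8 only, at 66.9 and 64.2 FPKM in WT, 39 and 38.3 in E2E8 and 58.5 and 59.0 in E2G7. The other way, *Nes*, which encodes nestin, was called higher in the pooled comparison, though not without either WT or either E2G7 library. *Tubb3*, a neuronal tubulin, was called higher in E2G7 only, though not without WT replicate 2 or with chromosome centring.

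Of 34 synaptic genes, 5 fell and 1 rose in both clones (beside 3.00% and 2.01% of all genes), and 3 were higher in E2E8 only. *Rims1*, which organizes the presynaptic release site, measured 3.66 and 3.44 FPKM in WT, 1.90 and 1.92 in E2E8 and 1.00 and 1.12 in E2G7 and fell most in E2G7, with log2 differences of -0.86 ± 0.079 (SE) in E2E8 and -1.65 ± 0.079 in E2G7, adjusted p = 0.00068 and 0.00022. *Gad2*, a GABA-producing enzyme, *Gria4*, an AMPA receptor subunit, and *Syt4*, a synaptotagmin, were each at most 0.494 FPKM in WT and lower in all KO libraries. *Gad2* was no longer called without WT replicate 2 or without E2E8 replicate 1. Without either WT library, *Gria4* and *Syt4* missed the minimum level. *Grin1*, the shared subunit of NMDA receptors, rose, at 0.959 and 0.943 FPKM in WT, 1.79 and 1.96 in E2E8 and 2.01 and 2.11 in E2G7.

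Pluripotency factors mostly stayed within 1.5-fold of WT. None of 12 core factors was called in both clones. *Sox2* measured 194 and 179 FPKM in WT, 132 and 137 in E2E8 and 138 and 137 in E2G7, lower in all KO libraries by 1.39-fold in E2E8 and 1.35-fold in E2G7. *Nanog* was lower by 1.34-fold in E2E8 and 1.22-fold in E2G7. It lies on chromosome 6, and with chromosome centring its log2 differences of -0.42 and -0.29 became -0.81 and -0.57, past the 1.5-fold line in E2E8 and, at -0.69, in the pooled comparison. Of 16 naive factors, 1 fell in both clones. This was *Tet2* (chr3:133126643-133207354), which encodes an enzyme that oxidizes 5-methylcytosine, at 17.3 and 17.6 FPKM in WT, 5.57 and 5.56 in E2E8 and 11.1 and 11.2 in E2G7. E2E8 was lowest and E2G7 lay between it and WT, with log2 differences of -1.63 ± 0.031 (SE) in E2E8 and -0.64 ± 0.031 in E2G7, adjusted p = 3e-05 and 0.00024, and with chromosome centring the E2G7 difference of -0.58 fell short of the line.

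Genes of the primed state, which follows the naive state as the embryo implants, fell in part. Of 16 tested, *Otx2*, *Cdh2*, *Nkx1-2* and *Foxd3* fell in both clones (beside 3.00% of all genes) and none rose in both, *Dnmt3b* was lower in E2E8 only, and *Etv4* and *Dusp6* were higher in E2G7 only. *Otx2* (chr14:49277354-49287319), a homeobox factor that drives exit from the naive state, measured 11.2 and 11 FPKM in WT, 0.738 and 0.765 in E2E8 and 3.04 and 2.90 in E2G7. It fell furthest in E2E8, with log2 differences of -3.72 ± 0.057 (SE) in E2E8 and -1.87 ± 0.057 in E2G7, adjusted p = 1.7e-05 and 0.00012, and the clones differed by -1.85 ± 0.057 (SE, adjusted p = 0.00014). *Cdh2*, which encodes N-cadherin, measured 1.79 and 1.90 FPKM in WT, 0.522 and 0.562 in E2E8 and 0.742 and 0.748 in E2G7, and *Nkx1-2* 4.42 and 4.69 in WT, 1.27 and 1.65 in E2E8 and 1.82 and 1.88 in E2G7. *Foxd3* measured 11.3 and 9.10 FPKM in WT, 3.06 and 3.38 in E2E8 and 6.11 and 6.52 in E2G7, and without WT replicate 1 its log2 difference in E2G7 was -0.52, below the line. The 17 primed genes in the table summed to 101 and 94.4 FPKM in WT, 54.3 and 57.8 in E2E8 and 80.9 and 82.1 in E2G7.

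Targets and antagonists of WNT signaling, which CHIR99021 activates, fell in part. Of 18 tested, *Notum* and *T* fell in both clones and none rose, and the list medians were -0.45 in E2E8 and -0.24 in E2G7. *Notum* (chr11:120515102-120522489), a secreted enzyme that inactivates WNT proteins, measured 93.6 and 87.8 FPKM in WT, 35.7 and 37.0 in E2E8 and 36.8 and 38.3 in E2G7. All KO libraries were tightly grouped, with log2 differences of -1.32 ± 0.043 (SE) in E2E8 and -1.27 ± 0.043 in E2G7, adjusted p = 5.5e-05 and 0.00012. In the pooled comparison *Ccnd1* (54.7 and 54.5 FPKM in WT, 31.5 and 31.2 in E2E8 and 37.5 and 37.5 in E2G7), *Sp5* and *Apcdd1* were called lower too, with E2G7 alone short of 1.5-fold. The pooled calls of *Sp5* and *Apcdd1* were lost under 8 and 6 of the alternatives, among them leaving out WT replicate 1 or E2E8 replicate 1, chromosome centring, and treating libraries of a line as correlated. *T*, at 0.662 and 0.519 FPKM in WT, 0.318 and 0.319 in E2E8 and 0.236 and 0.175 in E2G7, lost its call without WT replicate 1 or without any 1 KO library.

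Some genes of BMP, Nodal and FGF signaling fell in both clones, and others rose. *Fst* (chr13:115242470-115249159), follistatin, which binds activins and BMPs, measured 8.86 and 9.20 FPKM in WT, 2.53 and 2.67 in E2E8 and 2.55 and 2.87 in E2G7. Both clones were at the same level, with log2 differences of -1.76 ± 0.072 (SE) in E2E8 and -1.70 ± 0.072 in E2G7, adjusted p = 8.1e-05 and 0.00017. *Gsc*, a homeobox target of Nodal, measured 3.93 and 4.09 FPKM in WT, 1.30 and 1.40 in E2E8 and 1.21 and 1.45 in E2G7. Of 21 genes of the BMP pathway, *Fst*, *Bambi* and *Bmp2* fell, and of 18 genes of Nodal signaling and mesendoderm, *Gsc* fell and *Eomes* rose, at 1.84 and 1.89 FPKM in WT, 3.23 and 3.03 in E2E8 and 2.97 and 3.09 in E2G7. Of 18 FGF ligands and receptors, *Fgf15*, *Fgf17*, *Fgf2* and *Fgfr2* fell and *Fgf10* rose. Higher in E2E8 only were *Bmp7*, the BMP antagonist *Chrd*, *Fgf22* and the receptor *Fgfr4*. *Fgf17*, the most abundant of the 5 FGF genes called in both clones, measured 9.40 and 8.13 FPKM in WT, 4.98 and 5.67 in E2E8 and 4.62 and 4.5 in E2G7. The calls of *Bambi* and *Fgfr2* were lost without E2G7 replicate 2, that of *Fgf10* without WT replicate 1 or E2E8 replicate 1, and those of *Bmp2* and *Fgf2*, both at most 0.185 FPKM, without any 1 library.

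LIF acts through STAT3, which switches on its own inhibitor *Socs3*. *Socs3* (chr11:117827393-117831361) measured 40.3 and 36.5 FPKM in WT, 22.7 and 23.9 in E2E8 and 20.6 and 21.7 in E2G7 and fell in both clones, with log2 differences of -0.72 ± 0.06 (SE) in E2E8 and -0.85 ± 0.06 in E2G7, adjusted p = 0.00051 and 0.00053. *Pim2*, a kinase gene on X, fell as well, at 3.89 and 3.52 FPKM in WT, 2.29 and 2.39 in E2E8 and 2.25 and 2.31 in E2G7, but not without WT replicate 1 (log2 -0.57 in E2E8). *Junb*, an immediate early gene on chromosome 8, rose and lost its call with chromosome centring, without WT replicate 2 and without E2E8 replicate 2. Of the 19 genes of this list, 2 fell and 1 rose in both clones. *Myc* and *Mycl1* were lower in E2E8 only, at 4.58 and 4.05 FPKM in WT, 1.88 and 2.02 in E2E8 and 3.44 and 3.54 in E2G7 for *Mycl1*. Without WT replicate 1, *Myc* also passed in E2G7, upward (log2 0.59).

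Imprinted genes, which are expressed from 1 parental copy, included several of the shared downregulated genes. Of 54 tested, 7 fell in both clones (beside 3.00% of all genes) and none rose in both, with a median of -0.16 in each clone. *Peg10* (chr6:4697306-4710514), a paternally expressed gene derived from a retrotransposon, measured 12.3 and 12.3 FPKM in WT, 0.443 and 0.492 in E2E8 and 0.632 and 0.723 in E2G7. Every KO library was far below WT, with log2 differences of -4.45 ± 0.091 (SE) in E2E8 and -3.99 ± 0.091 in E2G7, adjusted p = 3.1e-05 and 7.1e-05, although the median of its chromosome, 6, was higher in both clones. Its neighbor *Sgce* measured 1.53 and 1.59 FPKM in WT, 0.472 and 0.469 in E2E8 and 0.250 and 0.210 in E2G7. The noncoding RNA gene *Rian* (chr12:110842155-110899919), expressed from the maternal copy, measured 1.60 and 1.51 FPKM in WT, 0.00160 and 0.00360 in E2E8 and 0.0318 and 0.0494 in E2G7, and was nearly absent from E2E8. *Meg3* and *Mirg*, on either side of it, were at 0.221 to 0.428 FPKM in WT and at most 0.0117 FPKM in any KO library. With 1 WT library left out, *Rian*, *Meg3* and *Mirg* missed the minimum level and could not be tested. *Sfmbt2* measured 6.08 and 6.37 FPKM in WT, 3.28 and 3.3 in E2E8 and 4.12 and 3.95 in E2G7 and *Zrsr1* 5.83 and 5.90 in WT, 3.77 and 3.99 in E2E8 and 3.23 and 3.33 in E2G7. Both passed narrowly. Without WT replicate 2 or without E2G7 replicate 2, *Sfmbt2* differed by -0.58 in E2G7, and without WT replicate 2 or E2E8 replicate 1, *Zrsr1* differed by -0.58 or -0.55 in E2E8, all short of the line. *Zfp57*, which keeps methylation at imprinted regions, fell too, at 75.3 and 79.2 FPKM in WT, 44.2 and 46.0 in E2E8 and 46.9 and 46.5 in E2G7 (log2 -0.77 in E2E8 and -0.72 in E2G7).

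The miRNA genes of the *Meg3* to *Mirg* region (chr12:110779211-110987665) were lower as well. Of 6 miRNA loci tested there or shortly past the end of *Mirg*, 5 fell in both clones. Each of the 5 was listed at 0 in all 4 KO libraries. They met the minimum level through the WT libraries alone, so only a fall could be called in them. In WT, the 2 libraries gave 0.444 and 1.04 FPKM for *Mir432*, 0.362 and 0.852 for *Mir667*, 0.397 and 0.311 for *Mir654*, 1.22 and 0.956 for *Mir453*, and 0.741 and 0.290 for *Mir541*. These are fragments of a total RNA library over the hairpin, not mature miRNA, and few fragments lie behind each value. The mature sequences from RefSeq (GRCm38.p6) are shown with the seed, bases 2 to 8, in capitals, since a miRNA finds its targets by pairing of the seed. No seed is shared between them:
miR-432: uCUUGGAGuagaucagugggcag
miR-453: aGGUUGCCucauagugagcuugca
miR-541-5p: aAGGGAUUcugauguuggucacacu
miR-541-3p: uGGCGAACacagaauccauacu
miR-654-5p: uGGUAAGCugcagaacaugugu
miR-654-3p: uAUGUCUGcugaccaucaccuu
miR-667-5p: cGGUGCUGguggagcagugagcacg
miR-667-3p: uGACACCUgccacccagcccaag

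Of all 479 miRNA loci tested, 30 fell and 14 rose in both clones (beside 3.00% and 2.01% of all genes). Most of those that rose were listed at 0 in both WT libraries. They met the minimum level through the KO libraries alone, so only a rise could be called in them. The WT libraries also held the fewest fragments, and the part of depth in these zeros was not tested. Inside *Sfmbt2* (chr2:10292137-10516880), which holds a large cluster of near-identical miRNA copies, 119 were tested and 19 fell in both clones. Reads of such copies cannot be assigned with certainty, so their number is uncertain.

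X-linked genes made up 54 of the 516 shared downregulated genes (10.5%, against 4.12% of all genes tested) and 3 of the shared upregulated genes. *Nxf3*, an RNA export factor, measured 7.91 and 8.25 FPKM in WT, 1.53 and 1.52 in E2E8 and 0.550 and 0.414 in E2G7, lowest in E2G7, with log2 differences of -2.33 ± 0.12 (SE) in E2E8 and -3.82 ± 0.12 in E2G7, adjusted p = 0.00014 and 0.00012. *Cfp*, the complement factor properdin, measured 28.6 and 28.4 FPKM in WT, 6.96 and 6.67 in E2E8 and 15.8 and 16.0 in E2G7, and *Klhl13*, a substrate adaptor of an E3 ubiquitin ligase, 27.1 and 28.2 in WT, 12.9 and 12.9 in E2E8 and 8.22 and 7.99 in E2G7. Among these picked genes the order of the clones differed, since *Cfp* was lowest in E2E8 and *Klhl13* in E2G7. *Xlr3a*, of a lymphocyte-regulated family, measured 3.40 and 3.34 FPKM in WT, 1.76 and 1.86 in E2E8 and 0.541 and 0.497 in E2G7, and *Xlr4a* 3.10 and 2.71 in WT, 0.881 and 1.06 in E2E8 and 0.275 and 0.331 in E2G7. This family has near-identical copies, so the split between them is uncertain. X as a whole had a median log2 difference of -0.07 in E2E8 and -0.06 in E2G7.

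Further protein-coding genes led the shared decrease. *Slc24a5*, a potassium-dependent sodium and calcium exchanger, measured 9.67 and 9.77 FPKM in WT, 1.18 and 1.36 in E2E8 and 1.65 and 1.40 in E2G7 (log2 -2.84 in E2E8 and -2.60 in E2G7). *Ccrn4l*, which encodes the rhythmic enzyme nocturnin, measured 11.8 and 11.8 FPKM in WT, 2.01 and 2.10 in E2E8 and 1.79 and 1.81 in E2G7 (log2 -2.46 in E2E8 and -2.65 in E2G7). In both genes the WT libraries were close to each other and all KO libraries lay at a common low level. *Dner* (chr1:84366416-84692796), a transmembrane Notch ligand of neurons, measured 5.89 and 5.43 FPKM in WT, 0.951 and 0.992 in E2E8 and 0.520 and 0.545 in E2G7 and was lowest in E2G7, with log2 differences of -2.43 ± 0.082 (SE) in E2E8 and -3.19 ± 0.082 in E2G7, adjusted p = 5.5e-05 and 0.0001. *Sox21*, a neural HMG-box factor, measured 2.91 and 2.35 FPKM in WT, 0.511 and 0.599 in E2E8 and 0.527 and 0.584 in E2G7 and *Smoc1*, a matrix protein, 4.17 and 3.55 in WT, 0.939 and 0.845 in E2E8 and 0.853 and 0.919 in E2G7. *Mthfd2l*, a mitochondrial folate enzyme, had log2 differences of -2.11 in E2E8 and -1.93 in E2G7, and *Arntl2*, a clock factor, of -2.26 in E2E8 and -3.02 in E2G7. The unplaced snoRNA entry SNORD113 and the gene *Gm10801* completed the 12 leading genes, the former listed at 0 in 3 of the 4 KO libraries and not called in E2G7 without WT replicate 1.

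Among the shared upregulated genes, chromosomes 6 and 8 held a large part. They gave 35 and 66 of the 346 genes (10.1% and 19.08%), against 4.53% and 5.13% of all genes tested. With chromosome centring, 8 of the 35 and 16 of the 66 were still called, whereas 241 of the 245 genes on other chromosomes kept their call. Genes such as *Cdh1*, which encodes E-cadherin (102 and 98.8 FPKM in WT, 152 and 152 in E2E8 and 158 and 155 in E2G7), *Cdh3*, *Slc7a5*, *Herpud1* and *Dusp4* on chromosome 8 and *Gata2* on chromosome 6 lost their shared calls in this way. The calls of *Cdh1*, *Herpud1* and *Dusp4* were also lost without WT replicate 2. *Fgf10* was one of the 4 genes on other chromosomes that lost theirs. Outside this class, the shared downregulated genes *Stmn2*, *Tet2*, *Pim2*, *Sfmbt2* and *Zrsr1* and the E2G7-only gene *Lin28a*, all close to 1.5-fold in 1 clone, fell short of it with centring too. Chromosome 8 genes that kept theirs included *Bst2* (chr8:74058163-74061336), the interferon-induced tetherin, at 60.8 and 55.5 FPKM in WT, 254 and 245 in E2E8 and 129 and 133 in E2G7, with log2 differences of 2.10 ± 0.052 (SE) in E2E8 and 1.17 ± 0.052 in E2G7, adjusted p = 4.3e-05 and 0.00019, and *Snai3*, at 1.28 and 1.22 FPKM in WT, 6.87 and 6.78 in E2E8 and 3.21 and 3.54 in E2G7.

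Off those chromosomes, the shared upregulated genes had varied roles. *Gpx2* (chr12:77893322-77896541), a glutathione peroxidase, measured 71.4 and 68.9 FPKM in WT, 152 and 149.9 in E2E8 and 162 and 160.0 in E2G7, nearly equal in both clones, with log2 differences of 1.11 ± 0.032 (SE) in E2E8 and 1.20 ± 0.032 in E2G7, adjusted p = 5.5e-05 and 0.0001. *Hmha1* (chr10:79479398-79494217), which encodes a GTPase-activating protein, measured 4.10 and 3.93 FPKM in WT, 15.3 and 16.4 in E2E8 and 10.9 and 11.1 in E2G7 and was highest in E2E8 (log2 1.95 in E2E8 and 1.44 in E2G7). *Inf2*, an actin-nucleating formin, measured 0.739 and 0.687 FPKM in WT, 2.70 and 3.19 in E2E8 and 1.96 and 2.06 in E2G7. *Ggt1*, an enzyme of glutathione turnover, measured 1.34 and 1.06 FPKM in WT, 5.96 and 6.41 in E2E8 and 3.31 and 3.33 in E2G7, and *Chi3l1*, a secreted chitinase-like protein, 0.404 and 0.447 in WT, 1.82 and 1.66 in E2E8 and 1.46 and 1.46 in E2G7. These 5 kept their calls under all 15 alternatives with clone contrasts, as did *Pwwp2b*, *2610528J11Rik*, *Tmem125* and *Fam19a4*, the last on chromosome 6. *2510046G10Rik*, at 0.192 and 0.676 FPKM in WT, 1.89 and 2.72 in E2E8 and 1.36 and 1.96 in E2G7, lost its call without WT replicate 1 or any 1 KO library. *Fgg*, a fibrinogen chain, rose in both but unequally, at 0.322 and 0.239 FPKM in WT, 4.38 and 4.99 in E2E8 and 0.721 and 0.918 in E2G7, and the clones differed by 2.39 ± 0.16 (SE, adjusted p = 0.00047).

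Several lists had more than 1 shared upregulated member. Of 23 Notch pathway genes, *Dtx1*, *Notch3* and *Nrarp* rose in both clones and none of the list fell in both. *Lfng*, which modifies Notch receptors, was lower in E2E8 only, at 3.72 and 4.34 FPKM in WT, 1.69 and 1.82 in E2E8 and 5.72 and 5.82 in E2G7, and without WT replicate 2 it passed upward in E2G7 too (log2 0.62). The Notch ligand gene *Dner*, which fell in both clones, is not in the list. *Dtx1*, an E3 ligase that modulates Notch, measured 12.4 and 10.7 FPKM in WT, 26.0 and 28.7 in E2E8 and 20.1 and 20.9 in E2G7, with log2 differences of 1.24 ± 0.084 (SE) in E2E8 and 0.83 ± 0.084 in E2G7, adjusted p = 0.00028 and 0.0014, and *Notch3* 3.15 and 3.17 in WT, 5.21 and 5.93 in E2E8 and 4.54 and 5.08 in E2G7. *Nrarp*, a Notch target, measured 1.46 and 1.60 FPKM in WT, 2.67 and 2.69 in E2E8 and 2.37 and 2.42 in E2G7. Without WT replicate 1, *Nrarp* differed by 0.55 in E2G7, and without E2G7 replicate 2, *Notch3* differed by 0.51, both short of the line, and *Notch3* was not called without WT replicate 1 either. Of 49 germline and meiosis genes, *Piwil2*, *Tdrd5* and *Tex15* rose and *Dazl*, *Gm1564*, *Syce1*, *Xlr3a* and *Xlr4a* fell. *Piwil2*, of the piRNA pathway, measured 1.93 and 1.98 FPKM in WT, 4.54 and 4.66 in E2E8 and 3.22 and 3.26 in E2G7 and *Syce1*, of the synaptonemal complex, 11.1 and 11.7 in WT, 6.27 and 6.84 in E2E8 and 5.76 and 5.65 in E2G7, so that germline genes moved in both directions. The call of *Tex15*, on chromosome 8, was lost with chromosome centring and without WT replicate 1 or E2G7 replicate 1, and that of *Dazl* without WT replicate 2, E2E8 replicate 1 or E2G7 replicate 2. Of 69 replication-dependent histone genes, 2 rose and 3 fell, with medians of 0.37 and 0.39. The summed level of the 70 genes in the table was 18741 to 20601 FPKM in WT and 22719 to 27132 in the KO libraries. Transcripts of these genes lack poly(A) tails and are near-identical, so single genes are uncertain.

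**Figure D4:**
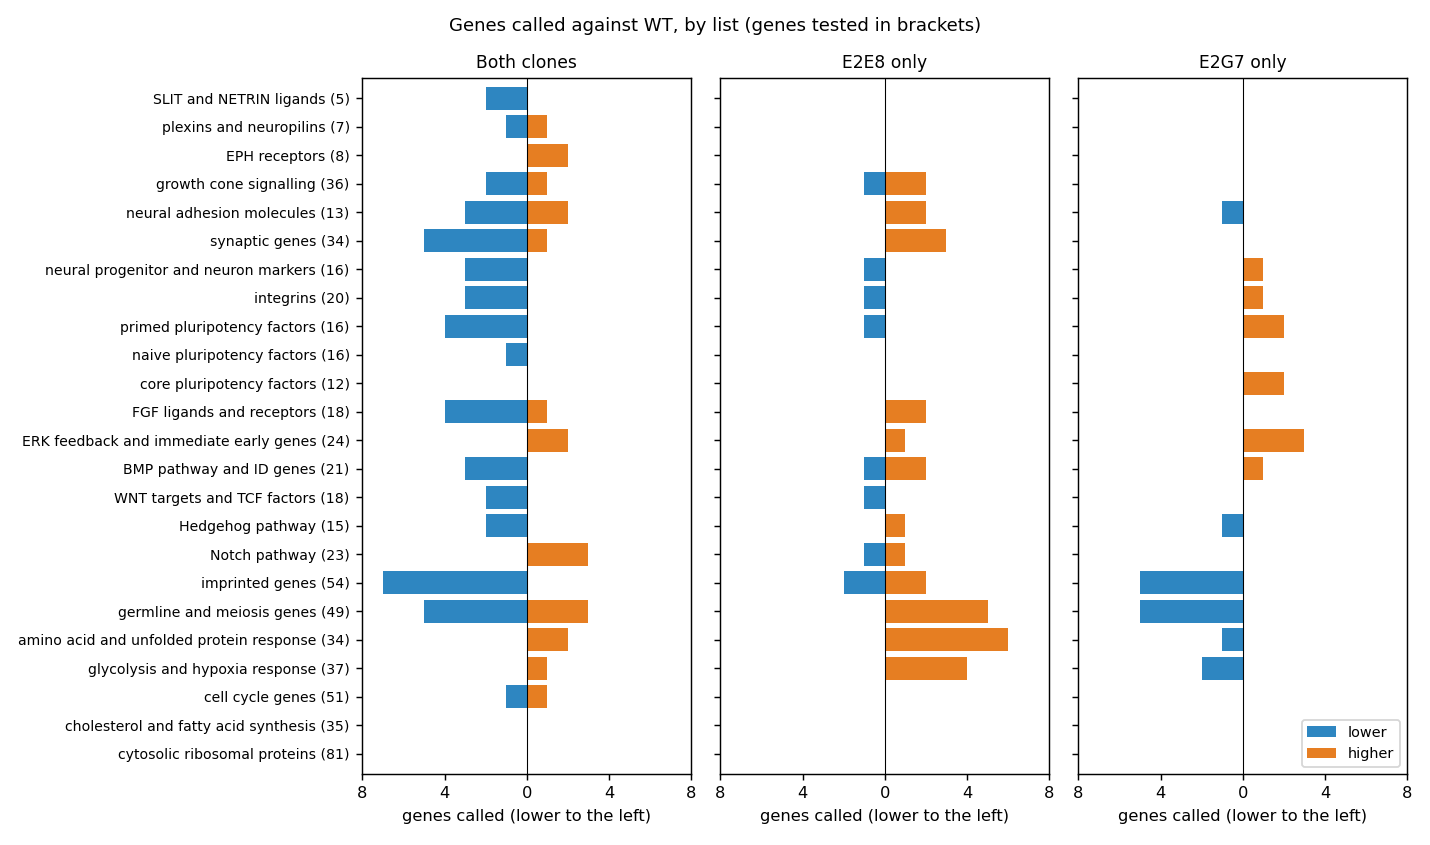
Number of genes called lower (to the left) and higher (to the right) in both clones, in E2E8 only and in E2G7 only (panels), for 24 gene lists (y axis, genes tested in brackets). Imprinted genes have the most shared lower genes, 7 of 54, while ribosomal proteins (81) and cholesterol and fatty acid synthesis (35) have none in any panel.

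Many lists had few or no calls. No cytosolic ribosomal protein of 81, no mitochondrially encoded gene of 26 and no gene of cholesterol and fatty acid synthesis of 35 was called in both clones or in 1 clone only. Of 51 cell cycle genes, *Ccnd2* fell, at 0.509 and 0.587 FPKM in WT, 0.0299 and 0.0440 in E2E8 and 0.129 and 0.120 in E2G7, and *Ccna1*, a low germline cyclin, rose but lost its call without WT replicate 1, without either E2G7 library and with voom. *Ccna2* measured 78.8 and 81.9 FPKM in WT, 76.1 and 76.1 in E2E8 and 84.3 and 82.5 in E2G7, slightly below WT in E2E8 and slightly above in E2G7. The CDK inhibitor *Cdkn1a* measured 32.5 and 33.9 FPKM in WT, 47.7 and 46.7 in E2E8 and 36.3 and 36.7 in E2G7, highest in E2E8 at 1.42-fold of WT, and *Cdkn1b* 24.0 and 25.0 in WT, 31.8 and 30.8 in E2E8 and 27.3 and 27.1 in E2G7. *Cdkn1b* was not called and lies on chromosome 6, and with chromosome centring its log2 differences of 0.35 and 0.15 turned to -0.04 and -0.14. Of 32 Polycomb subunits none was called in both clones, and of 28 p53 targets none either. Of 324 *Zfp* genes, which encode zinc finger proteins, 4 fell and 2 rose in both clones. Of 15 Hedgehog genes, *Hhip*, a decoy receptor, fell at 1.12 and 1.13 FPKM in WT, 0.169 and 0.193 in E2E8 and 0.287 and 0.22 in E2G7, and *Gli2* fell at 6.31 and 6.09 in WT, 3.87 and 4.10 in E2E8 and 3.51 and 3.52 in E2G7.

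E2E8 had the larger set of changes of its own, most of them upward. Of 34 genes of the amino acid and unfolded protein response, 6 rose in E2E8 only (beside 4.43% of all genes), namely *Atf3*, *Ddit3*, *Chac1*, *Vldlr*, *Slc3a2* and *Slc7a11*. *Ddit3* (chr10:126727830-126733344), the stress factor CHOP, measured 4.32 and 4.68 FPKM in WT, 15.2 and 15.9 in E2E8 and 5.47 and 5.19 in E2G7. E2E8 was high and E2G7 near WT, and the clones differed by 1.53 ± 0.057 (SE, adjusted p = 0.00017). *Chac1*, a glutathione-degrading target of the same response, measured 3.91 and 3.78 FPKM in WT, 8.29 and 8.44 in E2E8 and 4.02 and 4.46 in E2G7. *Atf3* measured 0.739 and 1.15 FPKM in WT, 3.96 and 4.12 in E2E8 and 1.39 and 1.34 in E2G7, and without WT replicate 2 it passed in both clones (log2 2.30 and 0.80). *Slc3a2* and *Slc7a11*, the partners of a cystine transporter, rose from very different levels. *Slc3a2* measured 61.5 and 60.6 FPKM in WT, 120.2 and 127 in E2E8 and 82.6 and 81.0 in E2G7 and *Slc7a11* 0.403 and 0.337 in WT, 0.798 and 0.822 in E2E8 and 0.375 and 0.469 in E2G7. Without E2E8 replicate 2 or E2G7 replicate 2 the clones differed by 0.56 or 0.58 in *Slc3a2*. *Slc7a11* was no longer assigned to E2E8 alone without either E2E8 library or without E2G7 replicate 1. The list median was 0.32 in E2E8 and 0.13 in E2G7.

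Some members of other stress and metabolic lists were also higher in E2E8 only. *Ddit4*, an inhibitor of mTORC1, measured 16.2 and 15.1 FPKM in WT, 47.3 and 45.1 in E2E8 and 18.8 and 19.8 in E2G7 and *Hmox1*, heme oxygenase, 23.4 and 23.0 in WT, 47.7 and 47.6 in E2E8 and 28.6 and 28.5 in E2G7. In both genes E2E8 was highest and E2G7 slightly over WT, and *Hmox1* lies on chromosome 8. *Eno2*, a glycolytic enzyme, measured 0.751 and 0.766 FPKM in WT, 1.86 and 2.29 in E2E8 and 1.00 and 0.917 in E2G7. Of 37 genes of glycolysis and the hypoxia response, 4 rose in E2E8 only (beside 4.43% of all genes). In that list 2 fell in E2G7 only (beside 1.67%) and 1 rose in both clones, and its median was -0.09 in E2E8. Of 31 glutathione genes and NRF2 targets, 3 rose in E2E8 only (beside 4.43% of all genes). Among 216 solute carriers, 25 rose in E2E8 only (beside 4.43% of all genes) and 3 fell.

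Signaling genes changed in E2E8 as well. *Dll1*, a Notch ligand, measured 0.0474 and 0.0743 FPKM in WT, 0.937 and 0.994 in E2E8 and 0.109 and 0.140 in E2G7 and was low outside E2E8. *Bmp7* measured 1.64 and 1.56 FPKM in WT, 3.79 and 4.17 in E2E8 and 1.74 and 1.89 in E2G7. *Id3*, a target of BMP signaling, was lower in E2E8, at 6.85 and 5.75 FPKM in WT, 2.07 and 2.34 in E2E8 and 8.43 and 9.57 in E2G7, while E2G7 was above WT. Without WT replicate 1 *Id3* passed in E2G7 too, in the opposite direction (log2 0.64), as it did without E2G7 replicate 1 (log2 0.60). *Dnmt3b*, a de novo DNA methyltransferase of the primed state, measured 11.1 and 10.2 FPKM in WT, 3.65 and 3.82 in E2E8 and 13.5 and 13.6 in E2G7, and the clones differed by -1.83 ± 0.051 (SE, adjusted p = 0.00014). The interferon-induced genes *Oas1a* and *Oas1g* were lower in E2E8 only, and *Oas1a* measured 3.34 and 3.10 FPKM in WT, 0.893 and 0.998 in E2E8 and 3.38 and 3.47 in E2G7. *Pacsin1*, an endocytic adaptor of neurons that the study names, was higher in E2E8 only, at 0.136 and 0.15 FPKM in WT, 0.561 and 0.493 in E2E8 and 0.239 and 0.234 in E2G7, but not without E2E8 replicate 1.

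The 6 genes with the largest difference between clones among those higher in E2E8 were *Gpx6*, *Got1l1*, *Naglu*, *Rassf6*, *Mid1* and *BC055111*. *Naglu*, a lysosomal enzyme, measured 0.740 and 0.639 FPKM in WT, 3.23 and 3.27 in E2E8 and 0.682 and 0.774 in E2G7 and *Mid1*, an X-linked ubiquitin ligase, 4.29 and 4.65 in WT, 12.4 and 13.6 in E2E8 and 3.12 and 3.23 in E2G7. E2G7 overlapped with WT or lay below it in both, while all E2E8 libraries were above. *Got1l1* measured 1.82 and 1.74 FPKM in WT, 11.1 and 11.2 in E2E8 and 2.77 and 2.34 in E2G7 and passed in both clones without E2G7 replicate 2 (log2 2.58 and 0.61), and *Gpx6*, at 1.49 and 1.84 in WT, 10.6 and 10.3 in E2E8 and 2.08 and 2.50 in E2G7, without WT replicate 2 (log2 2.74 and 0.58).

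**Figure D5:**
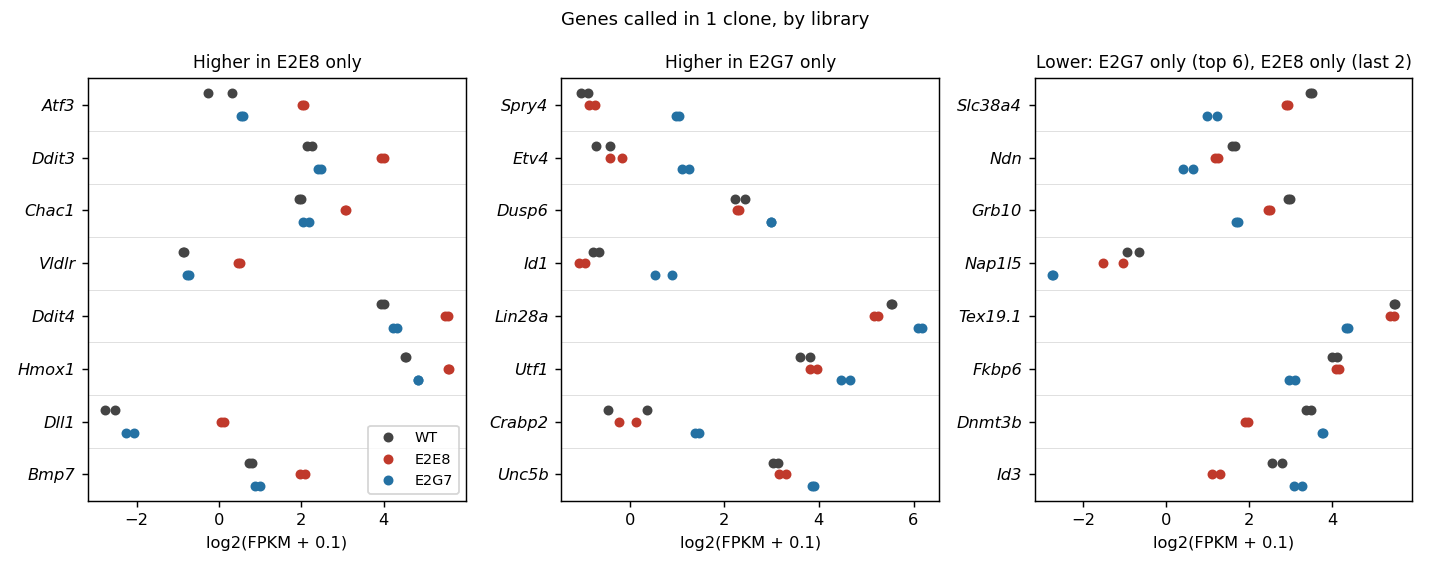
Level of each library, as log2(FPKM + 0.1) (x axis), for 8 genes each called higher in E2E8 only, higher in E2G7 only, and lower in 1 clone only (panels; in the last, 6 in E2G7 and 2 in E2E8). Points are single libraries. The rule for these genes required the called clone to differ from both other lines, as for *Ddit3* in E2E8 and *Spry4* in E2G7.

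E2G7 had fewer changes of its own, and most were downward. The upward ones included genes of ERK feedback, which MEK activity induces and PD0325901 holds down. Of 24 ERK feedback and immediate early genes, 3 rose in E2G7 only (beside 0.575% of all genes), *Fos* rose in E2E8 only, and *Junb* and *Dusp4* rose in both clones. *Dusp4*, an ERK phosphatase on chromosome 8, was highest in E2E8, at 1.41 and 1.28 FPKM in WT, 4.24 and 4.56 in E2E8 and 2.01 and 2.16 in E2G7. *Spry4*, a feedback inhibitor of receptor tyrosine kinases that the study names, measured 0.443 and 0.393 FPKM in WT, 0.501 and 0.454 in E2E8 and 1.86 and 1.97 in E2G7. E2E8 was close to WT, and the clones differed by -1.80 ± 0.11 (SE, adjusted p = 0.00038). *Etv4*, an ETS factor, measured 0.515 and 0.648 FPKM in WT, 0.655 and 0.799 in E2E8 and 2.04 and 2.30 in E2G7 and *Dusp6*, an ERK phosphatase, 5.29 and 4.55 in WT, 4.72 and 4.89 in E2E8 and 7.82 and 7.8 in E2G7. *Dusp6* was at log2 0.55 in E2G7 without WT replicate 2, under the line. *Id1*, which the study also names, measured 0.488 and 0.541 FPKM in WT, 0.373 and 0.420 in E2E8 and 1.36 and 1.75 in E2G7 and was higher in E2G7 only, with a difference between clones of -1.73 ± 0.15 (SE, adjusted p = 0.00087). Of the core pluripotency factors, *Utf1* (14.0 and 12.1 FPKM in WT, 14.0 and 15.4 in E2E8 and 22.1 and 25.1 in E2G7) and *Lin28a* (46.1 and 46.9 in WT, 38.0 and 35.9 in E2E8 and 72.2 and 68.6 in E2G7) were higher in E2G7 only, *Lin28a* narrowly, and not without E2G7 replicate 1 (log2 0.56) or without WT replicate 1.

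The E2G7-only downregulated genes included imprinted and germline genes. Of 54 imprinted genes, 5 were lower in E2G7 only (beside 1.67% of all genes), and in E2E8 only 2 were lower and 2 higher. *Slc38a4*, a paternally expressed amino acid transporter, measured 11.3 and 10.9 FPKM in WT, 7.5 and 7.35 in E2E8 and 2.24 and 1.89 in E2G7 and *Grb10*, a growth inhibitor, 7.87 and 7.61 in WT, 5.36 and 5.56 in E2E8 and 3.13 and 3.24 in E2G7. E2E8 lay between WT and E2G7 in both, and *Slc38a4* passed in both clones without WT replicate 2 (log2 -0.60 in E2E8) or without E2E8 replicate 1 (-0.59). *Nap1l5*, *Ndn* and *H19* had the same order, at 3.09 and 2.93 FPKM in WT, 2.27 and 2.15 in E2E8 and 1.23 and 1.47 in E2G7 for *Ndn*. *Ndn* was no longer assigned to E2G7 alone without E2G7 replicate 1, and *H19* without E2E8 replicate 2. Of 49 germline genes, 5 were lower in E2G7 only (beside 1.67% of all genes) and 5 were higher in E2E8 only (beside 4.43%). *Tex19.1*, which guards germ cells against retrotransposons, measured 44.9 and 45.8 FPKM in WT, 44.9 and 41.8 in E2E8 and 20.6 and 20.1 in E2G7, while *Fkbp6* measured 15.9 and 17.3 in WT, 16.8 and 17.9 in E2E8 and 7.71 and 8.52 in E2G7. *Crabp1*, a retinoic acid carrier, was lower, at 12.5 and 12.3 FPKM in WT, 13.4 and 13.9 in E2E8 and 5.34 and 5.55 in E2G7, whereas its relative *Crabp2* was higher, with a WT spread from 0.632 to 1.18 FPKM and a call that needed both E2G7 libraries and E2E8 replicate 2. *Crmp1*, a mediator of semaphorin signaling, was higher, at 3.66 and 3.55 FPKM in WT, 2.96 and 3.04 in E2E8 and 8.91 and 8.62 in E2G7.

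A few genes passed in both clones in opposite directions. *Dnmt3l* (chr10:77504692-77526367), the cofactor of de novo DNA methylation, measured 5.95 and 6.38 FPKM in WT, 2.89 and 3.11 in E2E8 and 16.1 and 15.4 in E2G7. E2E8 was below and E2G7 above both WT libraries, and the clones differed by -2.36 ± 0.059 (SE, adjusted p = 0.00014). *2410004A20Rik* measured 12.1 and 10.8 FPKM in WT, 6.05 and 6.29 in E2E8 and 49.4 and 50.6 in E2G7 and *Nt5e*, an ectonucleotidase, 1.43 and 1.38 in WT, 0.183 and 0.223 in E2E8 and 2.43 and 2.48 in E2G7. *Smo*, the Hedgehog transducer on chromosome 6, went the other way, at 3.77 and 3.89 FPKM in WT, 6.29 and 6.38 in E2E8 and 2.45 and 2.41 in E2G7, and lost its call with chromosome centring.

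The promoters of called genes had fewer CpG than those of all genes tested, in the shared genes as in those of 1 clone. RefSeq windows from 250 bases before to 50 after the start (GRCm38.p6) were at hand for 10088 of the 17212 genes by symbol, among them 300 of the 516 shared downregulated and 209 of the 346 shared upregulated genes. The median number of CpG dinucleotides per window was 10.5 and 13 in these, and 20.0 over all 12838 windows. Genes called in 1 clone only had medians from 10.0 to 16.0, and 9.52% to 18.2% of their windows held CCGGAA. The letters CCGGAA, on either strand, were in 10.8% and 13.1% of the windows against 25.5% of all, TATAAA in 11.9% and 5.47% against 7.20%, GCATG in 32.5% and 26.3% against 28.0%, and CACGTG in 8.76% and 11.3% against 9.97%. A match is a description of the letters, not of binding. The shared downregulated genes had low levels, and no comparison matched for level was made. The windows of *Otx2* (chr14:48667595-48667894, minus strand, 6 CpG, 1 of 4 windows) and *Slit3* (chr11:35121206-35121505, plus strand, 41 CpG) show the range, with CG in capitals:
Otx2: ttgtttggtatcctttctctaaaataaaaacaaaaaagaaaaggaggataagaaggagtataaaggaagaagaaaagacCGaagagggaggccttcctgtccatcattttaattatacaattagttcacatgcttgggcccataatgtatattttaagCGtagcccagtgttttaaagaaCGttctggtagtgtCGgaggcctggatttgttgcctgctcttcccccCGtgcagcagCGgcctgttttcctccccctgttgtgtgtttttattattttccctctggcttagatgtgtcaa
Slit3: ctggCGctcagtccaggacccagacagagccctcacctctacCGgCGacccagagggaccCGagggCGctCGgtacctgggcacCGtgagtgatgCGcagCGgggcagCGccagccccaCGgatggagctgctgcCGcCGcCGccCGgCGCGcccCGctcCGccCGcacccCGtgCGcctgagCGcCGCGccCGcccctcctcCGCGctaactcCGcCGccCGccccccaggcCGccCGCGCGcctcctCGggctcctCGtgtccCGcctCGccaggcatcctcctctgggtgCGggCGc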

How the data were processed

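RNA of each line was sequenced as ribosome-depleted, stranded, paired-end total RNA. The deposited table gives FPKM per gene, which the authors made from reads aligned to NCBIM37 with their StrongArm pipeline and counted with HTSeq. Per the submitters' processing notes, edgeR 3.16.5 in R 3.3.1 was used. The aligner within that pipeline and the instrument of each library are not given in the sources used here. FPKM are not counts, so a count model was not the main test.

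To scale libraries, each gene's FPKM was divided by its geometric mean across libraries, and the median of these ratios was taken out, using the 11270 genes that reached 1 FPKM in each of the 10 libraries (factors 0.965 to 1.01 in the 6 libraries). Printed FPKM are these scaled values. A gene was tested if 2 or more of the 6 libraries reached 0.1 FPKM, which 17212 of 34591 genes did. Log2(FPKM + 0.1) was tested with limma 3.58.1 (variance trend, R 4.3.3), once with the 4 KO libraries as 1 group and once with a mean for each line. DEGs had an unadjusted p under 0.01 and at least 1.5-fold change. An exact permutation of 2 against 4 libraries cannot go below p = 0.0667, so p-values are those of limma only. A clone's libraries share 1 editing event and do not replicate the KO independently.

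Values under 100 fragments were, within 0.01 fragment, whole multiples of the value of 1 fragment in 98.1% to 98.3% of cases, which gave the depth and an alternative fit with voom. Genes were placed by matching 33606 identifiers to GENCODE vM1. Column mapping left 0 columns without a library. Python 3.11.15, numpy 2.4.6, pandas 2.3.3 and matplotlib 3.10.9 were used, and the scripts were tested on simulated data.

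Named genes were (a) the MiDAC subunits, (b) genes that the study names for mESC RNA, (c) the 12 shared genes in each direction with the largest smaller clone change at a mean of 1 FPKM or more, protein-coding where a type is annotated, (d) the 6 genes with the largest difference between clones for each clone and direction, (e) list members called in both clones or pooled at 0.5 FPKM or more, up to 5 in each direction, and (f) cell type markers. A gene that these rules would name is not reported here. The members and lists were chosen with earlier results of these data known. Alternatives were another pseudocount, filters, scaling, fits and centring, and leaving out each library.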

Additional observations from a re-analysis of the deposited data

Results flagged for a closer look

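The clones were set directly against each other, and these values were picked out because that test separated them. By it, 217 genes were lower and 762 higher in E2E8 only, and 288 were lower and 99 higher in E2G7 only. All values here are the log2 difference of E2E8 minus E2G7, and no explanation was tested.

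Among genes called in opposite directions, the difference was -3.08 for *Nt5e*, -3.00 for *2410004A20Rik*, -2.36 for *Dnmt3l*, -1.92 for *AA986860*, -1.85 for *Irgm1*, -1.70 for *Aoah* and -1.54 for the small nuclear RNA entry U5. In these genes E2E8 was below and E2G7 above WT. The other way, it was 1.30 for *Rtkn*, 1.30 for *Tcea2*, 1.31 for *Capn2*, 1.35 for *Smo*, 1.74 for the entry U3 and 1.94 for *Aqp8*. Leaving out 1 library ended several of these calls: that of U3 with any library other than WT replicate 2 left out, of *Rtkn* with any other than E2E8 replicate 1 left out, of *Tcea2* without either WT library, E2E8 replicate 2 or E2G7 replicate 2, of *Capn2* without WT replicate 1 or E2G7 replicate 1, of *Irgm1* without either E2G7 library and of *AA986860* without E2E8 replicate 1. With chromosome centring, *Rtkn*, *Capn2* and *Smo* were no longer called in opposite directions. Entries such as U3, U4 and U5 stand for many near-identical copies, and their values are uncertain.

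Of genes lower in E2E8 only, the difference was -2.87 for *Dio3*, -1.98 for *Id3*, -1.83 for *Dnmt3b*, -1.75 for *Oas1a*, -1.70 for *Nnat* and -1.69 for *Eras*, which without WT replicate 2 passed upward in E2G7 too. *Dio3*, a thyroid hormone-inactivating enzyme, measured 1.17 and 1.07 FPKM in WT, 0.116 and 0.269 in E2E8 and 1.92 and 2.00 in E2G7 and was no longer assigned to E2E8 without either E2E8 library. *Nnat*, neuronatin, measured 1.57 and 1.61 FPKM in WT, 0.574 and 0.476 in E2E8 and 1.82 and 2.04 in E2G7. Of genes higher in E2E8 only, it was 2.15 for *Gpx6*, 2.09 for *Got1l1*, 2.02 for *Naglu*, 2.00 for *Rassf6*, 1.99 for *Mid1*, 1.85 for *BC055111* and 0.90 for *Pacsin1*.

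Of genes higher in E2G7 only, the difference was -1.80 for *Spry4*, -1.73 for *Id1*, -1.65 for *Klk10*, -1.52 for *Crmp1*, -1.46 for *Crabp2*, -1.46 for *Etv4*, -1.28 for *Rnf213* and -1.21 for *Dusp14*. *Rnf213*, a large ubiquitin ligase, measured 4.34 and 4.36 FPKM in WT, 4.5 and 5.06 in E2E8 and 11.5 and 11.8 in E2G7, and *Dusp14*, a phosphatase, 5.23 and 5.27 in WT, 3.62 and 3.69 in E2E8 and 8.14 and 9.04 in E2G7. Of genes lower in E2G7 only, it was 2.00 for U4, 1.80 for *Slc38a4*, 1.80 for *Lipa*, 1.70 for *Cyct*, 1.54 for *Stc2* and 1.5 for *4930583H14Rik*. U4 was no longer assigned to E2G7 alone without WT replicate 2, E2E8 replicate 2 or either E2G7 library, and *Klk10*, above, without WT replicate 1. *Lipa*, lysosomal acid lipase, measured 3.68 and 3.48 FPKM in WT, 4.47 and 4.38 in E2E8 and 1.25 and 1.15 in E2G7, and *Cyct*, the testis form of cytochrome c, 5.24 and 5.62 in WT, 6.61 and 7.82 in E2E8 and 2.24 and 2.05 in E2G7. With 2 libraries per line, single libraries could not be tested for standing apart.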

How the results depend on the processing

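No called result reversed under any alternative run. Of values not called, the pooled difference of *Cdkn1b* turned from 0.25 to -0.09 with chromosome centring, and that of *Ccna2* and the medians of 6 lists, all between -0.07 and 0.07, changed sign in places. With a pseudocount of 1 FPKM, which shrinks low genes by construction, the pooled counts were 298 lower and 227 higher, the shared counts 216 and 126, the E2E8-only counts 74 and 293, and the E2G7-only counts 92 and 44. With genes averaging at least 1 FPKM, and so fewer genes tested, pooled lower was 276, shared 238 and 220, E2E8-only 117 and 415, and E2G7-only 171 and 61. With libraries of a line treated as correlated, a fit made for the pooled comparison alone, 253 genes were lower and 233 higher. With voom on recovered fragments 250 were higher in the pooled comparison, and the cause was not tested. Leaving out 1 library gave ranges of 300 to 574 and 322 to 589 for pooled lower and higher, 417 to 451 and 258 to 465 for shared, 174 to 211 and 487 to 762 for E2E8-only, and 206 to 300 and 59 to 110 for E2G7-only. The other alternatives moved no count by over 1.5 times. With chromosome centring, 509 shared genes were lower and 291 higher. For 176 named genes the pooled difference, or that of the clones, was followed. In 87 it kept its call, or its value where it was not called, and 0 reversed. The shared call itself held under all 15 alternatives with clone contrasts in 55 of 108 named genes. A pseudocount of 1 FPKM ended the most shared or 1-clone calls, 35 of 135. Libraries of the same replicate number did not deviate together (correlations -0.06, 0.07 and -0.02 over 12153 genes). Whether such libraries shared a batch or handling is not given in the sources used here. With a replicate block the counts were 508 and 363 pooled, 488 and 326 shared, 204 and 706 in E2E8 only and 275 and 90 in E2G7 only. Low levels limit the calls of genes near the minimum of 0.1 FPKM.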

Other observations

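Genes of the cell surface and matrix also differed, mostly by single members. Of 25 genes of heparan sulfate proteoglycans, on which many growth factors dock, *Sdc4* and *Hs3st3b1* rose and *Hs6st2* fell in both clones. *Sdc4*, syndecan 4, measured 79.2 and 78.5 FPKM in WT, 137 and 138 in E2E8 and 123 and 122 in E2G7, above WT in every KO library (log2 0.80 in E2E8 and 0.63 in E2G7). Lower in E2G7 only were *Gpc1*, at 9.83 and 8.79 FPKM in WT, 6.46 and 7.11 in E2E8 and 3.99 and 4.48 in E2G7, and *Sdc3*, at 1.36 and 1.42 in WT, 1.21 and 1.46 in E2E8 and 0.517 and 0.473 in E2G7. Of 20 integrins, *Itga7*, *Itga9* and *Itgal* fell and none rose in both clones, all under 1 FPKM, and the call of *Itga9* was lost without WT replicate 2 or any 1 KO library and that of *Itgal* without E2G7 replicate 1. *Hs6st2*, at most 0.194 FPKM, was also not called without any 1 library. The primitive endoderm markers *Col4a1*, *Lamb1*, *Sox7* and *Srgn* were lower in E2E8 only, 4 of 14 tested (beside 1.26% of all genes). Of the same list, 1 gene was higher in E2E8 only and 1 in E2G7 only. *Lamb1*, a laminin chain, measured 6.01 and 5.93 FPKM in WT, 3.45 and 3.71 in E2E8 and 5.8 and 5.86 in E2G7. *Sox7* was no longer assigned to E2E8 alone when any 1 KO library was left out. The sum over the 20 markers was nonetheless higher in E2E8 (151 and 155 FPKM) and E2G7 (175 and 177) than in WT (129 and 129).

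Immune genes changed in few members. Of 29 tested, *Bst2* and *Nod2* rose and *H2-D1* fell in both clones. *Nod2*, a sensor of bacterial cell walls on chromosome 8, measured 0.386 and 0.360 FPKM in WT, 1.29 and 1.27 in E2E8 and 1.24 and 1.33 in E2G7 and *H2-D1*, a class I MHC gene, 2.09 and 1.87 in WT, 1.07 and 1.08 in E2E8 and 0.691 and 0.742 in E2G7, while *H2-K1* was lower in E2G7 only, at 3.58 and 3.42 FPKM in WT, 3.00 and 3.11 in E2E8 and 1.67 and 1.54 in E2G7. Class I MHC genes are similar in sequence, so their split is uncertain. *Gadd45b*, a stress-induced gene, rose in both clones, at 7.06 and 6.56 FPKM in WT, 14.0 and 14.6 in E2E8 and 10.8 and 11.5 in E2G7. *Hist1h1t*, the testis linker histone, was the histone gene that fell most, at 6.12 and 6.44 FPKM in WT, 1.69 and 1.77 in E2E8 and 0.847 and 0.890 in E2G7. *Tubb3*, a neuronal tubulin on chromosome 8, was higher in E2G7 only, at 60.0 and 53.4 FPKM in WT, 46.1 and 43.9 in E2E8 and 87.3 and 87.0 in E2G7, but not without WT replicate 2, and with chromosome centring its log2 difference of 0.62 became 0.27. Of 85 snoRNAs and scaRNAs, 6 were lower in E2G7 only (beside 1.67% of all genes). The summed level of the 122 in the table was 4704 and 4846 FPKM in WT, 5848 and 5117 in E2E8 and 3785 and 3769 in E2G7.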
